A study of Homo sapiens with 3 samples.

Results

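Gene expression in HepG2 cells exposed to reduced graphene oxide (rGO) was compared with that in untreated HepG2 cells, as the log2 value of the rGO array minus that of the control array. Of 33297 probe sets, 19460 carried exactly 1 gene symbol, and the probe set with the highest mean over the arrays stood for each of 18417 genes. The comparison was made across 11050 genes, those at or above the 40th percentile of the genes' mean log2 value over the 3 arrays (6.66); the other 7367 genes lay below this level filter. HepG2 is an established human liver tumour line, grown here in MEM. The control array held RNA of cells with no treatment. The rGO cells were exposed for 24 h at the EC20, the dose with a 20% effect in a viability assay. A further array held RNA of cells that met graphene oxide (GO) at its own EC20, also for 24 h. Concentrations are absent from the labels, so the doses of the materials were not compared. Each array was made from about 300 ng of total RNA, and the labels do not say how many cultures it came from. With 1 array for each condition there is no replicate check and no test is possible, so every value below is a difference between 2 single arrays. The only internal measure of error is the spread between repeat probe sets of a gene, a robust SD of 0.0539 over 365 genes, which covers neither cultures nor arrays.

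Reduced graphene oxide is graphene oxide from which part of the oxygen groups has been removed, which leaves a sheet-like carbon material. Many of the lowest genes after rGO were short noncoding RNAs, whose roles are as follows. Vault RNAs are short transcripts of RNA polymerase III that bind the vault, a large ribonucleoprotein particle of the cytoplasm. Spliceosomal snRNAs form the core of the machinery that removes introns. Small nucleolar RNAs (snoRNAs) of the C/D box class guide methylation of ribosomal RNA, those of the H/ACA box class guide its pseudouridylation, and the RNAs of the Cajal body (scaRNAs) guide the same modifications in snRNAs. Most human snoRNAs are processed from introns of host genes. In a liver line the other pathways of note are the synthesis of sterols and fatty acids, the secretion of plasma proteins and the mitochondrial oxidation that supplies energy.

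The 2 arrays were close to each other. Array medians were 6.65 in the control and 6.66 in the rGO array, and Pearson's r across the 11050 genes, which are not independent replicates, was 0.995. The differences had a median of -0.01 and a robust SD (scaled median absolute deviation) of 0.116, against 0.244 for GO minus control. In all, 8266 genes, 74.8%, lay within 1.1-fold of control. The lowest 5% of genes lay under -0.23 and the highest 5% above 0.19, and the lowest and highest 1% began at -0.36 and 0.29.

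By size, 2 genes (0.0181%) were at least 2-fold lower in the rGO array and 0 (0%) at least 2-fold higher. Lower by 1.5-fold or more were 14 genes (0.127%), and 3 (0.0271%) were higher by that size. A smaller size, a log2 difference of 0.32, was used for the lists below, and 165 genes (1.49%) were lower and 74 (0.67%) higher by at least that much. Over all genes 46.8% were above 0 and 53.1% below. These shares are the background for the counts of every list below. The same sizes held far more genes in the GO comparison, with 101 (0.914%) lower and 28 (0.253%) higher at 2-fold. Noncoding genes made up the lower end: at 1.5-fold all 14 lower genes and 2 of the 3 higher genes were noncoding. Of the 14 lower genes, 12 were vault, spliceosomal, nucleolar or Cajal body RNAs, and the others were SSTR5-AS1 and GPAT2P2. These short RNAs held 16 of the 20 lowest places and 3 of the 20 highest. Past the filter they were 106 snoRNA, 11 snRNA, 11 Cajal body and 3 vault RNA genes, so both counts exceeded their share. Their robust SD was 0.319 in snoRNAs, 0.433 in Cajal body RNAs and 0.202 in snRNAs, against 0.114 in protein-coding genes. For the 3 vault RNAs it was no useful measure of spread. It came to 0.00226 since VTRNA1-1 and VTRNA1-3 both stood at -0.79, while VTRNA1-2 stood at -1.34. The sides were unequal in snoRNAs, with 30 lower by at least 0.32 and 5 higher. Among Cajal body RNAs these counts were 4 and 2. Among 10553 protein-coding genes 52 (0.493%) were higher by at least 0.32 and 114 (1.08%) lower. The robust SD narrowed from 0.147 in the lowest of 10 equal bins of expression level to 0.0997 in the highest, so a difference of a given size stood further from the bulk in abundant genes.

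**Figure D1:**
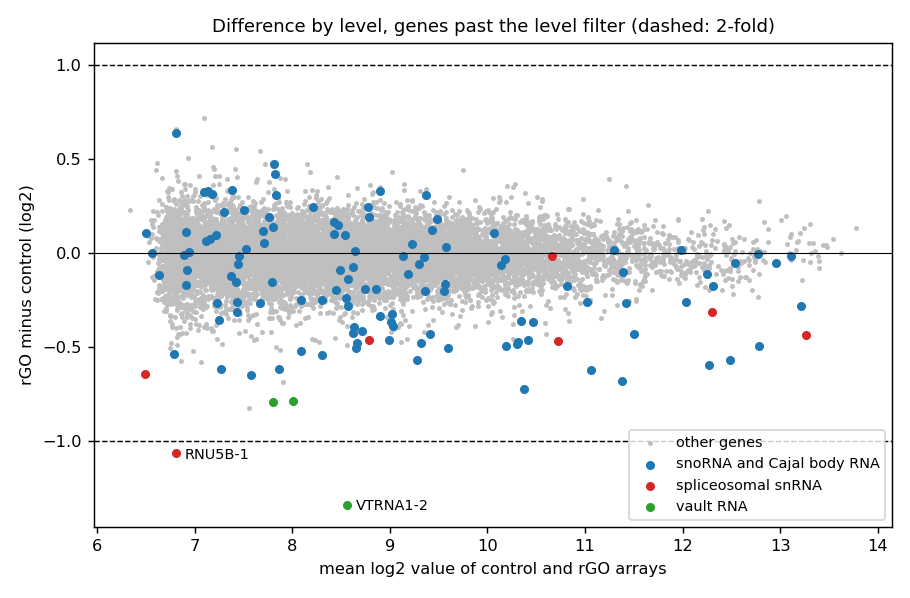
Each point is a gene past the level filter, with the mean of its log2 values in the control and rGO arrays on the x axis and the log2 difference, rGO minus control, on the y axis; colours mark short RNA classes and dashed lines mark 2-fold. VTRNA1-2 (-1.34) and RNU5B-1 (-1.07) lie below the lower dashed line, and many short RNAs sit below the bulk of grey points across the range of levels, with some above it.

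All 3 vault RNA genes on the array were lower in the rGO array. VTRNA1-2 read 9.23 in the control, 7.89 in the rGO array and 8.72 in the GO array, which put it 2.53-fold lower after rGO (-1.34). VTRNA1-1 read 8.20, 7.40 and 8.72 in the same order, a difference of -0.79 after rGO. VTRNA1-3 read 8.40, 7.61 and 8.29, also -0.79. The rGO value was the lowest of the 3 arrays for each of these genes. Since the vault RNAs are close copies, their probe sets can share signal, and the genes are not independent of each other. The proteins that bind or process vault RNAs showed no common direction, with 4 of 8 above 0 and a median of 0.05. MVP, the main protein of the vault shell, stood at -0.23 and PARP4, another vault protein, at 0.13. SSB, the La protein that binds new transcripts of RNA polymerase III, stood at 0.17, and NSUN2, which methylates vault RNAs, at 0.18. RNA polymerase III and its factors had 14 of 28 genes above 0 and a median of -0.00. Its largest subunit POLR3A stood at 0.21, the subunit POLR3F at -0.22 and the repressor MAF1 at 0.05. Other transcripts made by or grouped with this polymerase were nearer to 0 than the vault RNAs. Of 4 past the filter 3 were below 0, and the 4 ran from -0.26 to 0.11. RPPH1, the RNA of RNase P, stood at -0.20, and RMRP, the RNA of RNase MRP, at -0.11.

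Spliceosomal snRNA genes were lower as a group, with all 7 past the level filter below 0, 5 of them by at least 0.32, and a median of -0.47. RNU5B-1, a gene of the U5 snRNA, which holds the exons in place during splicing, read 7.34 in the control, 6.27 in the rGO array and 7.14 in the GO array, 2.09-fold lower after rGO (-1.07). Its rGO value was under the level set by the filter, in the range of weak signals. RNU4-2, of the U4 snRNA, read 6.81, 6.16 and 7.48 (-0.65). The rGO value of RNU4-2 was under the filter level too. It passed the filter only with its GO value counted in, and it is among the 7 and the 5. With the filter on the mean of control and rGO, 13 genes in place of 14 were lower by 1.5-fold or more. At high levels, RNU2-1, of the U2 snRNA that pairs with the branch point, read 13.48, 13.05 and 13.40 (-0.44). RNU5E-1 read 12.46, 12.15 and 12.57 (-0.32). The minor spliceosome's RNU11 and RNU4ATAC both stood at -0.47. RNU4-1 was the exception in size, at -0.01 with a control value of 10.67. Of the 13 snRNA genes on the array with or without the filter, 13 were below 0 and 9 lower by at least 0.32. These included RNU5D-1 (-1.49), RNU5A-1 (-0.71) and RNU5F-1 (-0.61), whose means lay below the filter. The 4 genes of variant U1 snRNAs outside this list, RNVU1-15 (-0.46), RNVU1-1 (-0.30), RNVU1-19 (-0.23) and RNVU1-6 (-0.22), were below 0 too. Copies of one snRNA are nearly identical and their probe sets may read each other's transcripts. Proteins of the U5 particle and of snRNP assembly stayed near the bulk, with 13 of 27 above 0 and a median of -0.02. PRPF8, the U5 protein at the catalytic centre, stood at 0.08, the helicase SNRNP200 at 0.04 and the GTPase EFTUD2 at 0.05. SNRPG, a protein of the Sm ring, was the lowest of the list at -0.37, and at -0.20 with its probe sets averaged.

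Among snoRNAs past the filter the H/ACA box class had the lower median. H/ACA box snoRNAs had a median of -0.27, with 32 of 38 below 0, 16 lower by at least 0.32 and 0 higher by at least 0.32. SNORA20 read 10.74 in the control, 10.01 in the rGO array and 10.89 in the GO array (-0.73). SNORA38B read 11.72, 11.03 and 11.73 (-0.68). SNORA23 read 12.57, 11.97 and 12.40 (-0.60). The rGO value was the lowest of the 3 arrays in each, and these 3 genes lay far above the filter level. SNORA65, which had a larger difference than SNORA23, read 7.58, 6.96 and 7.48 (-0.62) in the same order, nearer to the filter level. The highest of the class was SNORA62 at 0.31. The median depended on the level: it was -0.07 over all 61 H/ACA genes on the array and -0.36 over those past a 60th percentile filter. Over all 115 C/D genes on the array the median was -0.04, close to that of all H/ACA genes.

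C/D box snoRNAs had a median of -0.07, with 41 of 68 below 0, 14 lower by at least 0.32 and 5 higher by at least 0.32. They ran from SNORD46, which read 11.37, 10.75 and 11.37 in the control, rGO and GO arrays (-0.62), to SNORD42A, which read 7.61, 8.03 and 7.90 (0.42). SNORD41 stood at -0.57, SNORD74 at -0.50 and SNORD104 at -0.48, while SNORD96A, SNORD79 and SNORD50B stood at 0.33, 0.33 and 0.32. Much of the lower side came from SNORD116, a cluster of near-identical copies in the imprinted Prader-Willi region, where 13 of 15 copies were below 0 with a median of -0.26 and a range of -0.62 to 0.33. Without the SNORD115 and SNORD116 clusters, 28 of 53 C/D genes were below 0 and the median was -0.01. The copies of such a cluster are not independent, and their probe sets can share signal.

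The Cajal body RNAs spread in both directions, with 7 of 11 below 0, 4 lower by at least 0.32, 2 higher by at least 0.32 and a median of -0.10. SCARNA22 read 7.90, 7.25 and 7.71 in the control, rGO and GO arrays (-0.65), and SCARNA16 stood at -0.48. SCARNA9 (0.47) and its copy SCARNA9L (0.64) were the highest, and stood at 0.31 and 0.29 with their probe sets averaged. SCARNA9L read 6.49, 7.13 and 6.80 in the control, rGO and GO arrays, and its other probe set stood at -0.05. Its control value was under the filter level, and it passed with its high rGO value counted in. It is among the 2 higher here and the 3 genes higher by 1.5-fold or more. TERC, the RNA of telomerase, stood at -0.26.

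**Figure D2:**
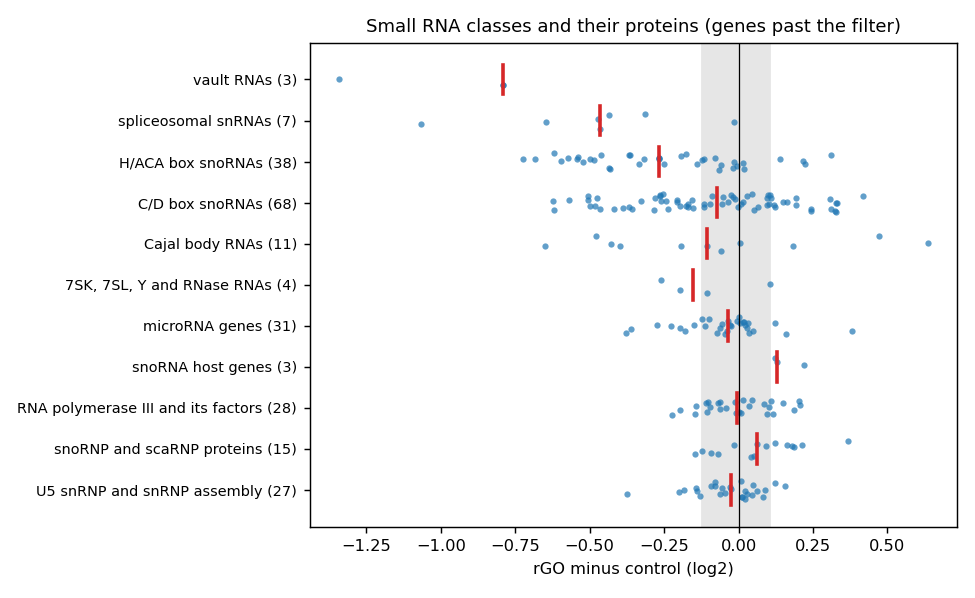
Each blue point is a gene past the level filter, placed by its log2 difference, rGO minus control, with its class on the y axis and the number of genes in brackets; the red bar is the class median and the grey band is the median of all genes plus and minus 1 robust SD. Vault RNAs (median -0.79), spliceosomal snRNAs (-0.47) and H/ACA box snoRNAs (-0.27) lie mostly left of the band, while the protein partners of these RNAs lie around 0.

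Most of the snoRNAs past the filter that were paired here with a host gene lay below that host. The pairs cover a small part of the 106 snoRNAs past the filter. Among 12 pairs past the filter, from 7 host genes, the small RNA lay below its host in 10, with a median of 0.03 over hosts and of -0.17 over small RNAs. NCL, which encodes nucleolin, stood at 0.25, the furthest host from 0, while SNORD82 and SNORA75 from its introns stood at -0.42 and -0.11. A further snoRNA of NCL below the filter, SNORD20, lay above its host, at 0.87 with 4.85 in the control and 5.72 in the rGO array. SNORD37 of EEF2 was also below the filter and above its host, at 0.36 against 0.03. RPL3, a ribosomal protein gene, stood at -0.04, and its SNORD43, SNORD83A and SNORD83B at -0.25, -0.12 and -0.26. RPS3 stood at -0.06, and SNORD15A and SNORD15B at -0.21 and -0.20. RPL7A stood at 0.18 and its SNORD36B at 0.10, and RPS2 at -0.03 with SNORA10 at -0.14. The chaperone gene HSPA8 stood at 0.03, with SNORD14C at -0.21 and SNORD14E at 0.10. In the noncoding host ZFAS1 (0.13), SNORD12C was above its host at 0.31. With ZFAS1, the noncoding hosts SNHG17 (0.22) and SNHG29 (0.12) were all above 0. Proteins that build snoRNPs were on the other side of 0 from most snoRNAs, with 10 of 15 above 0 and a median of 0.06. The share above 0 over all genes was 46.8%. NOLC1, a nucleolar chaperone of these particles, read 10.10, 10.47 and 10.31 in the control, rGO and GO arrays (0.37). The assembly factor NAF1 stood at 0.21, the Cajal body protein WRAP53 at 0.19, GAR1 at 0.18 and the pseudouridine synthase DKC1 at 0.16, while NOP10 stood at -0.12.

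Of 189 microRNA genes, taken by symbol, 31 passed the filter, with 19 below 0 and a median of -0.03, close to the background share below 0. RefSeq classed 26 genes past the filter as microRNAs, with 16 below 0 and a median of -0.04. The probe sets read the region of the gene, and a difference need not be one of the mature strand. The genes furthest from 0 were MIR147A, which read 6.64, 7.02 and 7.13 in the control, rGO and GO arrays (0.38), MIR15A (7.14, 6.76 and 6.96, -0.38) and MIR181C (6.93, 6.57 and 6.60, -0.36). Their mature RNAs, from RefSeq on GRCh38.p14, are shown with the seed, bases 2 to 8, in capitals, since the seed decides which targets a microRNA can pair with. They lie at chr9:120244985-120245004 (minus strand) for miR-147a, at chr13:50049167-50049188 (minus strand) for miR-15a-5p and at chr19:13874725-13874746 (plus strand) for miR-181c-5p.
miR-147a: gUGUGUGGaaaugcuucugc
miR-15a-5p: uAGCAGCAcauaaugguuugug
miR-181c-5p: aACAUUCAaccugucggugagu
No seed was shared between these genes. All values of these 3 genes lay within reach of the filter level.

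The protein-coding genes furthest from control had modest differences. GLP2R, a receptor of an intestinal peptide hormone, read 7.35 in the control, 6.77 in the rGO array and 6.90 in the GO array (-0.58). SCX, a transcription factor of tendon, stood at -0.57, the ubiquitin ligase TRIM50 at -0.52 and the placental hormone gene CSH2 at -0.51. SLC4A3, an anion exchanger, stood at -0.49, ETNPPL, which breaks down phosphoethanolamine, at -0.48, SPTSSB, a small subunit of serine palmitoyltransferase, at -0.48 and APIP of methionine salvage at -0.47. The rGO values of SCX (6.58), CSH2 (6.49), SLC4A3 (6.57) and SPTSSB (6.52) were under the filter level. SRP19, a protein of the signal recognition particle, read 9.35, 8.88 and 8.78 in the control, rGO and GO arrays (-0.47), well above the filter level. RAB13, a GTPase of cell junctions, read 8.81, 8.32 and 8.77 (-0.49), but stood at -0.26 with its probe sets averaged.

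At the higher end, TAS2R19, a bitter taste receptor, read 6.48, 7.14 and 6.65 in the control, rGO and GO arrays (0.66), the only coding gene past 1.5-fold. MDM4, an inhibitor of p53, read 7.15, 7.70 and 7.24 (0.55). HAL, which degrades histidine, read 6.38, 6.85 and 7.23 (0.48). Both TAS2R19 and HAL had control values under the filter level. EGR1, an immediate early transcription factor, read 9.53, 9.97 and 10.63 (0.44). FANCB, a member of the Fanconi anaemia DNA repair complex, stood at 0.43, with a control value of 6.59, also under the filter level. The Mediator subunit MED10 stood at 0.43 and TDG, a DNA glycosylase that removes mismatched thymine, at 0.41. HAUS6, a subunit of the augmin complex of the spindle, stood at 0.43 and CRACR2A, a calcium channel regulator, at 0.47, and these were 0.26 and 0.18 with their probe sets averaged.

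**Figure D3:**
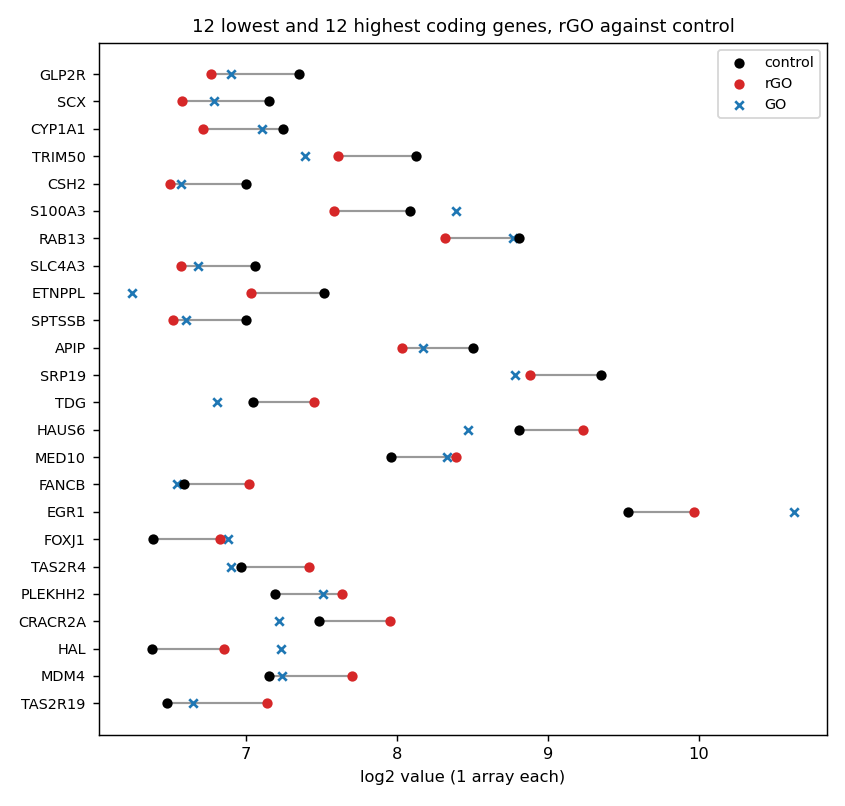
The 12 lowest and 12 highest protein-coding genes past the level filter are shown with the log2 value of each array on the x axis, the control in black, rGO in red and GO as blue crosses. Lines join control and rGO; the longest line belongs to TAS2R19 (0.66), and many of these genes have values near the filter level of 6.66.

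Several noncoding genes with large differences lay in or beside coding genes that stood near control. PRDM16-DT read 6.73 in the control and 7.45 in the rGO array (0.72, or 0.38 with its probe sets averaged), and its neighbour PRDM16 stood at -0.00. SND1-IT1, from an intron of SND1, stood at 0.56 and SND1 at -0.04. EMC3-AS1 stood at 0.54 and EMC3 at 0.08. SSTR5-AS1 read 7.97, 7.15 and 7.57 in the control, rGO and GO arrays (-0.83), and SSTR5, a somatostatin receptor gene, stood at 0.08. The labels do not state the strand that the probe sets read, so a gene and its antisense partner cannot be told apart with certainty.

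Genes of cholesterol synthesis were higher by small amounts, with 15 of 16 above 0 and a median of 0.10, where 46.8% of all genes were above 0. None reached a difference of 0.32. HMGCS1, which makes HMG-CoA at the start of the pathway, read 11.02 in the control, 11.24 in the rGO array and 10.37 in the GO array (0.23). LSS, which closes the sterol ring, read 9.67, 9.84 and 9.13 (0.18). FDPS, the farnesyl diphosphate synthase, read 9.39, 9.56 and 9.33 (0.17). The rGO value was the highest of the 3 arrays in each. DHCR7, EBP and NSDHL, of the last steps, stood at 0.16 each and MVD of the mevalonate steps at 0.14. IDI1, which isomerises isopentenyl diphosphate, was the only member below 0, with 11.02, 10.78 and 9.72 (-0.24). In the GO comparison, which shares the control array, the median of the same list was -0.28. Genes of sterol uptake and its control had 8 of 11 above 0 and a median of 0.07, with the master regulator SREBF2 at 0.14 and INSIG2, which holds its precursor in the endoplasmic reticulum, at -0.28.

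Promoters of this list were searched because its members lay together above 0. RefSeq on GRCh38.p14 gave the 250 bases before the start of 14 of the 16 genes. The letters CCAAT, the CCAAT box, were found on either strand in 12 of the 14 (85.7%), against 41.4% of 8886 genes past the filter and 37.0% of 27305 genes with a promoter. The core of the sterol element, CACCCCA, was found in 3 of 14, against 9.13% of genes past the filter. The full sterol element was found in 0 of 14, against 0.045% of genes past the filter. An element this rare would be missing from most short lists. The letters GCGTG, the core of the xenobiotic element, were also in 12 of the 14 (85.7%), against 53.2% of genes past the filter, so CCAAT was not alone in its share. A match is a description of letters and does not show binding. Stretches around a CCAAT box are shown in the direction of the gene, with the box in capitals; in all 3 it lies on the opposite strand and so reads ATTGG. They lie at chr5:43313458-43313562 (minus strand) for HMGCS1, chr21:46228870-46228974 (minus strand) for LSS and chr1:155308765-155308865 (plus strand) for FDPS, with 95, 145 and 46 bases between the box and the start.
HMGCS1: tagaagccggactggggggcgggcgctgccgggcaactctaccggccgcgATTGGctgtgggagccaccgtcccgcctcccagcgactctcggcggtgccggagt
LSS: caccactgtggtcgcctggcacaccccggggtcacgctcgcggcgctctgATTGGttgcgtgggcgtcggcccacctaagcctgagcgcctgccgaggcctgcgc
FDPS: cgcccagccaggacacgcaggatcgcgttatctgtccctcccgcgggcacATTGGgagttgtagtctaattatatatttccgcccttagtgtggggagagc
IDI1, the member below 0, held the CCAAT letters as well.

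Genes of fatty acid and triglyceride synthesis had 15 of 19 above 0 and a median of 0.09, with 1 higher by at least 0.32. FADS2, a desaturase of polyunsaturated fatty acids, read 10.09 in the control, 10.44 in the rGO array and 10.20 in the GO array (0.35). MLXIPL, which encodes the glucose-responsive factor ChREBP, read 9.97, 10.27 and 9.49 (0.29). FASN, the fatty acid synthase, read 10.42, 10.66 and 10.55 (0.24), and SCD, which makes monounsaturated fatty acids, 12.15, 12.37 and 12.26 (0.22). ACACA, the carboxylase of the first step, stood at 0.17, while DGAT1, which makes triglyceride, stood at -0.10. In 7 of 15 promoters of this list the CCAAT letters were present (46.7%), near the background.

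Genes of fatty acid oxidation lay on the other side, with 15 of 20 below 0, a median of -0.08 and 1 lower by at least 0.32. The share below 0 over all genes was 53.1%. VNN1, a pantetheinase and known target of PPARA, read 7.06, 6.63 and 8.04 in the control, rGO and GO arrays (-0.43). The acyl-CoA dehydrogenases ACADM and ACADS both stood at -0.19, and ETFDH, which passes their electrons to the respiratory chain, at -0.18. CPT1A, which admits fatty acids to the mitochondrion, stood at 0.00, PPARA itself at 0.06 and HSD17B4, a peroxisomal enzyme, at 0.07.

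Lipoproteins and other secreted proteins of the hepatocyte had 21 of 27 above 0 and a median of 0.06, none past 0.32. APOM, an apolipoprotein of high-density lipoprotein, read 10.36, 10.65 and 11.23 in the control, rGO and GO arrays (0.30). ITIH4, an inter-alpha-trypsin inhibitor chain, stood at 0.19, APOC1 at 0.18 and the thyroid hormone carrier TTR at 0.16. Albumin, ALB, was close to control at 0.07 and the fibrinogen chain FGG stood at -0.13. Transcription factors of the hepatocyte had a median of -0.01.

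**Figure D4:**
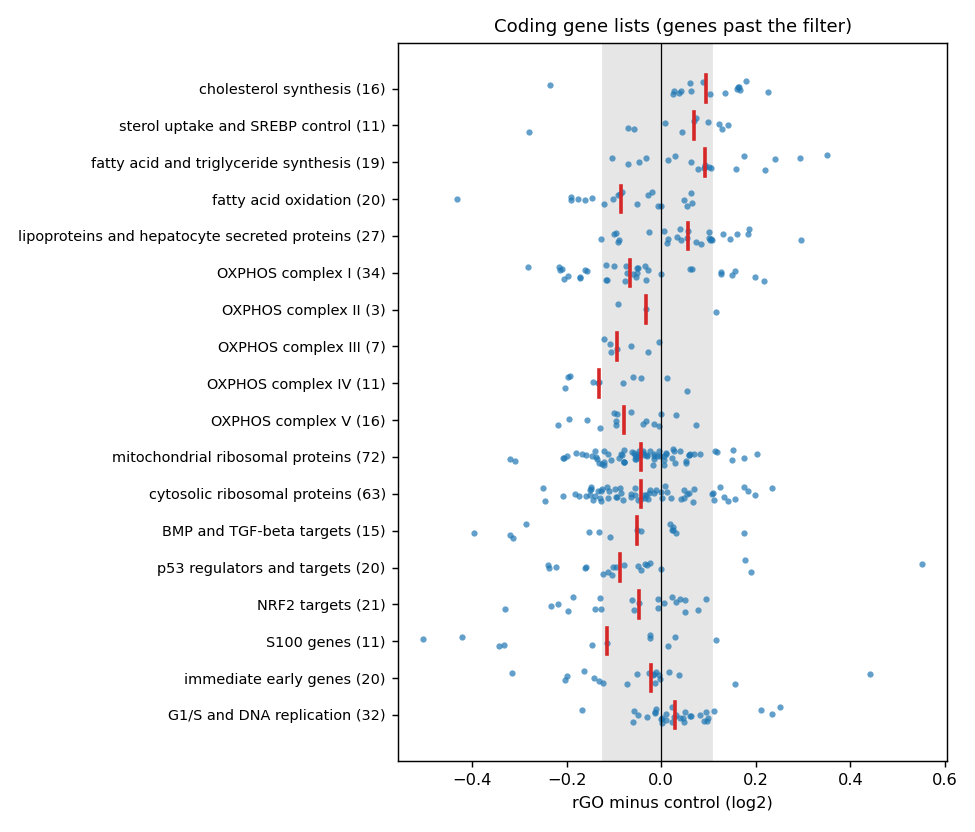
Each blue point is a gene of a coding list past the level filter, placed by its log2 difference, rGO minus control, with the number of genes in brackets; the red bar is the list median and the grey band is the median of all genes plus and minus 1 robust SD. Sterol and fatty acid synthesis lie right of 0 and the respiratory complexes left of it, and all list medians but that of complex IV (-0.13) lie inside the band.

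Genes of oxidative phosphorylation, the respiratory chain and ATP synthase, were lower by small amounts, with 58 of 71 below 0 and a median of -0.07, where 53.1% of all genes were below 0. None reached a difference of 0.32. By complex, the median was -0.07 in complex I (26 of 34 below 0), -0.03 in complex II (2 of 3), -0.09 in complex III (7 of 7), -0.13 in complex IV (9 of 11) and -0.08 in complex V (14 of 16). NDUFA5 of complex I read 8.04 in the control, 7.75 in the rGO array and 6.94 in the GO array (-0.28). COX7A2 of complex IV read 9.76, 9.56 and 9.15 (-0.20). ATP5MG, a membrane subunit of the ATP synthase, read 10.91, 10.70 and 10.65 (-0.22). In complex IV the small subunits COX7C and COX7B stood at -0.20 and -0.19, and COX4I1 at 0.01. Complex I had members on both sides, with NDUFB3 at -0.22 and NDUFB1 at 0.22. In the GO comparison, which shares the control array, the median of the 71 genes was -0.08. Other mitochondrial lists were nearer to the bulk, with medians of -0.02 for the tricarboxylic acid cycle, -0.03 for mitochondrial import and -0.04 for mitochondrial ribosomal proteins (49 of 72 below 0).

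The letters GCATGCGC, the core that the factor NRF1 of respiratory genes recognises, were found on either strand in 12 of 62 oxidative phosphorylation promoters of the same length (19.4%), against 5.74% of genes past the filter and 3.22% of all genes with a promoter. They were in 0 of the 14 cholesterol synthesis promoters, while CCAAT was in 20 of these 62 (32.3%). Stretches from a member of complexes V, I and IV are shown with the core in capitals, in the direction of the gene, from RefSeq on GRCh38.p14. They lie at chr4:674297-674404 (minus strand) for ATP5ME, chr7:123557919-123558026 (minus strand) for NDUFA5 and chr2:97645876-97645983 (plus strand) for COX5B, with 70, 150 and 128 bases between the core and the start. In ATP5ME and NDUFA5 the core lies on the opposite strand and so reads GCGCATGC, and in COX5B it lies on the strand of the gene.
ATP5ME: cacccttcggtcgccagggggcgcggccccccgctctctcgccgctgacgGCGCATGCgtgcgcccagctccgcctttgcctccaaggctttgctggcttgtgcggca
NDUFA5: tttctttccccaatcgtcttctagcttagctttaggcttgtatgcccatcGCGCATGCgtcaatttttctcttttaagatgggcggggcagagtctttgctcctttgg
COX5B: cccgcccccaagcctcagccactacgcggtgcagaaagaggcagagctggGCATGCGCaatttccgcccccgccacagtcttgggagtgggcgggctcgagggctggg
The differences of these genes after rGO were -0.16 for ATP5ME, -0.28 for NDUFA5 and -0.06 for COX5B.

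The genomic span of a gene moved with the difference, and it touches the coding lists. From the shortest to the longest of 10 equal bins of coding genes the median went from -0.03 to 0.03, and the share above 0 from 37.7% to 59.2%. Over the 10553 genes Spearman's rho between difference and span was 0.15, a description across genes of 2 arrays, and it was 0.02 for GO minus control. Oxidative phosphorylation genes are short, with a median span of 10.5 kb against 28.3 kb for all coding genes. Of the 71, 49 spanned at most 13871 bases, and 43 of these were below 0 with a median of -0.09, against 60.2% below 0 and a median of -0.03 for coding genes of that span. The other 22 had 15 below 0 and a median of -0.04, against 50.3% and -0.00. Cytosolic ribosomal proteins, with a median span of 5.06 kb, had 41 of 63 below 0 and a median of -0.04. The secreted proteins, at 10.1 kb, were short as well and lay above 0. The part of span in these results was not tested.

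**Figure D5:**
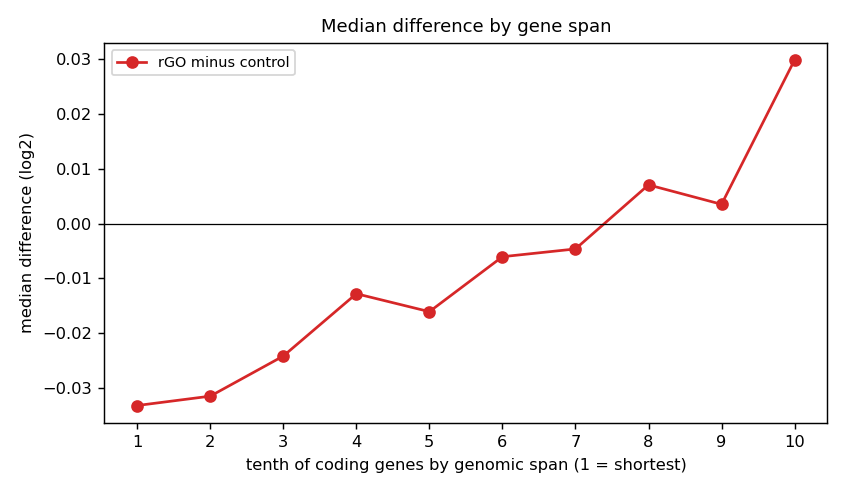
Each point is the median log2 difference, rGO minus control, of 1 of 10 equal bins of the protein-coding genes past the level filter, ordered by genomic span on the x axis from shortest to longest. The median goes from -0.03 in the shortest bin to 0.03 in the longest, a range far smaller than the robust SD of single genes.

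CYP1A1, a cytochrome P450 that the aryl hydrocarbon receptor switches on and the usual marker of exposure to polycyclic aromatic compounds, read 7.24 in the control, 6.72 in the rGO array and 7.11 in the GO array (-0.52). The receptor's battery, CYP1A1 included, had 5 of 6 genes below 0 and a median of -0.06. The other 5 were nearer to control: the receptor AHR stood at -0.08, its partner ARNT at -0.03, its repressor TIPARP at -0.04, ALDH3A1 at -0.10 and NQO1 at 0.01. CYP1A2 stood at -0.32 with all its values close to or under the filter level. Over all 8 battery genes on the array 2 were above 0, and the higher of these, a gene below the filter, stood at 0.20. The 250 bases before the start were searched for the core of the receptor's element, GCGTG. It was in 2 of 5 promoters of this list (40%), those of CYP1A1 and TIPARP, against 53.2% of genes past the filter. A longer form, TTGCGTG, was in 0 of the 5, against 1.73% of genes past the filter. Elements further from the start were not searched, so these counts do not show whether the genes lack them.

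Genes that answer oxidants and metals were close to the bulk. Of the 21 NRF2 targets, 13 were below 0, the median was -0.05 and 1 was lower by at least 0.32. That was AKR1C3, an aldo-keto reductase, which read 10.43, 10.10 and 9.40 in the control, rGO and GO arrays (-0.33). AKR1B10, of the same family, stood at -0.23, HMOX1, the haem oxygenase, at -0.13, GCLM of glutathione synthesis at 0.04 and the cystine importer SLC7A11 at 0.08. Genes of peroxide and superoxide detoxification had a median of -0.02; GPX1, the glutathione peroxidase, stood at -0.30, and at -0.12 with its probe sets averaged. Metallothioneins and zinc response genes had a median of -0.04, with MT1X at -0.07 and MT2A at 0.00. Their median after GO was -0.42.

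Among targets of BMP and TGF-beta signals 4 genes stood apart from the others of the list by size. HAMP, the iron hormone hepcidin, read 9.87 in the control, 9.48 in the rGO array and 7.16 in the GO array (-0.40). ID1 read 11.35, 11.04 and 8.46 (-0.31) and ID3 read 9.19, 8.87 and 6.49 (-0.32); both encode inhibitors of differentiation factors induced by BMP. BAMBI, a decoy receptor, stood at -0.29. For HAMP, ID1 and ID3 the rGO value lay between the other arrays and nearer to the control. The list as a whole had 9 of 15 below 0 and a median of -0.05, with 1 lower by at least 0.32, and TGFB1 itself stood at 0.18.

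S100 genes, which encode small calcium-binding proteins, had 8 of 11 below 0, 4 lower by at least 0.32 and a median of -0.11. Over all genes 53.1% were below 0 and 1.49% lower by at least 0.32. S100A3 read 8.08, 7.58 and 8.39 in the control, rGO and GO arrays (-0.50). S100P read 9.22, 8.80 and 7.95 (-0.42). S100A6 stood at -0.34 and S100A13 at -0.33, while S100A11 and S100A4, family members of wide expression, stood at -0.02 and 0.01. The other 11 family members on the array lay below the filter, and over all 22 the median was -0.02.

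Regulators and targets of p53 had 17 of 20 below 0 and a median of -0.09, where 53.1% of all genes were below 0. The 3 members above 0 were MDM4 (0.55) and MDM2 (0.18), which inhibit p53, and the repair factor XPC (0.19). MDM2 read 11.25 in the control, 11.43 in the rGO array and 11.10 in the GO array. Below 0 were TP53I3, an oxidoreductase, and the phosphatase PPM1D, at -0.24 each. RRM2B, the p53-induced subunit of ribonucleotide reductase, stood at -0.22. CDKN1A, the cell cycle inhibitor p21, read 8.60, 8.49 and 8.72 (-0.11). Apoptosis regulators had 14 of 20 below 0 and a median of -0.04. Immediate early genes had 16 of 20 below 0 and a median of -0.02. EGR1 (0.44) was alone among these past 0.32, and the phosphatase DUSP1 (-0.32), ZFP36 (-0.20) and JUN (-0.20) were the lowest.

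Most other responses to stress stood near 0. Medians were 0.02 for chaperones of the endoplasmic reticulum (-0.00 after loess on the mean level), 0.03 for the ATF4 and CHOP response, -0.02 for heat shock proteins and -0.02 for autophagy and lysosome genes. Of 16 interferon-stimulated genes 9 were below 0, and the median was -0.05. Cytokine, chemokine and NF-kappa-B genes had a median of 0.06, with RELB at 0.24 and CXCL8, the neutrophil chemokine, at -0.27. Endocytosis and scavenger receptor genes had a median of 0.02. Actin and adhesion genes had 14 of 24 above 0 and a median of 0.03, beside 0.30 after GO. Hypoxia and glycolysis genes had a median of 0.01, with the aldolase ALDOC at 0.35 and the hexokinase HK2 at 0.28, and a median of 0.34 after GO. Genes of G1/S and DNA replication had 23 of 32 above 0 and a median of 0.03, with the polymerase POLE at 0.25. Genes of G2/M and mitosis had 18 of 31 above 0 and a median of 0.03, with the proliferation marker MKI67 at 0.29. Across all 68 lists and families examined, 11 had a median at least 0.1 from 0. They were the vault RNAs, snRNAs, H/ACA snoRNAs, Cajal body RNAs, the 7SK to RNase group, snoRNA host genes, complex IV, COX genes, S100 genes, bitter taste receptors and the fibroblast and endothelial markers.

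Bitter taste receptors (TAS2R genes) are G protein-coupled receptors of taste cells and lay near or under the detection range of the array. Only 4 of 24 passed the filter, all above 0, 3 of them by at least 0.32, with a median of 0.41. Besides TAS2R19, TAS2R4 read 6.97 in the control, 7.42 in the rGO array and 6.90 in the GO array (0.45). TAS2R20 read 6.71, 7.08 and 6.82 (0.37), and TAS2R14 read 6.62, 6.84 and 6.62 (0.23). A gene near the filter can pass through the array in which it is high, so the count over those that passed is no support. Over all 24 on the array 19 were above 0, 8 by at least 0.32, with a median of 0.12. The cluster on chromosome 12, whose members are close copies that can share signal, had 13 of 14 above 0 and a median of 0.30, and the cluster on chromosome 7 had 6 of 9 above 0 and a median of 0.05.

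The label of a liver tumour line was borne out by its markers. All 11 hepatoma line markers on the array passed the filter, and AFP read 13.06 in the control and 13.16 in the rGO array, GPC3 13.05 and 13.10, and ALB 13.50 and 13.57. Of these markers 10 of 11 were above 0 with a median of 0.07. Of 9 leukocyte markers 3 passed the filter. These were LYZ, the lysozyme, at 13.23 and 13.38, CD68, a lysosomal protein of macrophages, at 9.61 and 9.51, and NKG7 at 7.26 and 7.27. PTPRC, which all leukocytes carry, read 3.65 and 3.76 and did not pass. Of 11 markers of fibroblasts, stellate and endothelial cells 3 passed, namely the smooth muscle actin ACTA2 at 9.66 and 9.69, the collagen COL1A1 at 7.43 and 7.26 and PDGFRB at 6.97 and 6.57. Among the 8 that did not pass, DCN read 3.88 and 3.71. The part of such cells in the results was not tested. Fewer cells of a kind and less RNA per cell cannot be told apart in such samples.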

How the data were processed

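Expression was measured on 3 Affymetrix arrays, 1 for each condition. The deposited values are log2 expression values of 33297 probe sets; RMA and MAS5 appear in the submitters' processing notes with no role given, and the genome build is not given in the sources used here. Gene names come from GEO's annotation of the platform, possibly outdated, and 18389 were matched to RefSeq by Entrez ID for biotype and span. The difference of 2 arrays was counted at 2-fold, 1.5-fold and a log2 size of 0.32, with no test. The members, the gene lists and the naming rule were chosen with earlier results of these data known, and so were the 6 promoter motifs. The rule named genes past 2-fold, the 20 highest and lowest, the 12 highest and lowest coding genes, and the 3 members of each list furthest from 0; other list members are examples. The 68 lists and families are described by counts and medians. Counting by size was tested on simulated data. Alternatives were quantile normalization, median centring, loess, other filters, the mean of probe sets, means in place of medians and other sizes. The software was pandas 2.3.3 and numpy 2.4.6 in Python 3.11.15. Loess came from statsmodels 0.14.6, and figures from matplotlib 3.10.9. Probe sets with no gene or several were left out.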

Additional observations from a re-analysis of the deposited data

Results flagged for a closer look

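Probe sets without a listed gene were not used for the comparison of genes, and they held larger differences. Of 12083 such probe sets 3911 passed the level filter, and 25 of these (0.639%) were at least 2-fold higher in the rGO array and 2 at least 2-fold lower. They are reported because they lie in data that the comparison did not use, and because no named gene was 2-fold higher. The probe sets past the filter spanned -2.07 to 1.95. Of the 25 higher ones, 24 were also above 0 in GO minus control and 4 were at least 2-fold higher there. Both comparisons share the control array, so a low control reading and a change after exposure cannot be told apart. Of the 25, 24 belonged to the 4203 probe sets whose IDs lie below that of the first probe set with a listed gene, a block with a median difference of 0.10 and a robust SD of 0.243 over the 2198 past the filter. What this block holds is not stated in the sources used here. Among 1014 probe sets with several gene symbols 0 were past 2-fold in either direction, 1 was at least 1.5-fold higher and 3 lower.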

How the results depend on the processing

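No paired analysis was possible because each condition had 1 array and the labels give no replicate numbers, and no replicate could be left out. The level filter decided the counts. With no filter, 4 genes were at least 2-fold lower, 14 and 52 at least 1.5-fold higher and lower, and 253 and 589 higher and lower by at least 0.32. With a 60th percentile filter these were 1, 0 and 9, and 26 and 86. Protein-coding genes alone gave 0 at least 2-fold lower, and 1 and 0 at 1.5-fold; with probe sets averaged 1 gene was 1.5-fold higher, and at 3-fold 0 were lower. Of 56 count values 41 stayed within 1.5 times. Of 678 list medians under the alternatives 661 moved by less than the spread of repeat probe sets. With no filter the medians of H/ACA snoRNAs, S100 genes, bitter taste receptors, olfactory receptors and fibroblast markers were -0.0690, -0.0203, 0.12, -0.0541 and -0.10. With the 60th percentile filter H/ACA snoRNAs, C/D snoRNAs, microRNA genes, interferon genes, vault proteins and keratins gave -0.36, -0.18, -0.15, -0.14, 0.11 and 0.0865, and the fibroblast markers reversed to 0.0273 on fewer genes. With means, vault RNAs, the aryl hydrocarbon receptor battery, divergent transcripts and keratins gave -0.97, -0.13, 0.10 and -0.0496. Filtering on the higher of the control and rGO arrays gave -0.19 for Cajal body RNAs. Of 1714 values of named genes 8 moved, all of genes with several probe sets. Many of the 1714 could not move. A filter leaves a gene's own difference as it was, and averaging probe sets alters only genes with several. The cause of the changes in list medians was not tested beyond the number of genes left. Under quantile normalization, median centring or loess 4 of the 68 medians changed sign, all within 0.0177 of 0. Quantile normalization gave 56 genes higher and 197 lower by at least 0.32, against 74 and 165.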
